A study of Mus musculus with 11 samples.

Results

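The genes described are 3 secreted hormones and the receptor pair of one of them: *Fgf21*, *Gdf15* and *Adm2*, with *Klb* and *Fgfr1*. They were chosen by name, after their levels in these libraries had been seen, as stress-induced hormones and as the receptor and co-receptor through which FGF21 acts. All 5 are among the 18667 genes of the series, and 4 of the 5 reach the floor of 0.1 FPKM (RNA fragments counted on a gene, scaled to the length of its exons and to the mapped reads of the library) as a mean over the libraries, which 16169 genes reach. *Klb* does not. Because the difference between the genotypes helped to choose these genes, that difference is described for them and not tested.

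The libraries are bulk RNA-Seq of whole mouse cochleae, the coiled organ of the inner ear that holds the sensory hair cells. They come from 5 *Atf6+/+* cochleae (labelled WT) and 6 *Atf6-/-* cochleae (labelled ATF6KO) of mice that were all 2 months old, on the C57BL/6J background. Each library was made from a single cochlea, and whether any of them share a mouse is not given in the sources used here. The *Atf6-/-* mice carry a premature stop in exon 4 in every cell of the body, so that the allele is not limited to one cell type of the ear, and they lack ATF6, a membrane-bound transcription factor of the unfolded protein response. The background strain, which both genotypes share, itself carries the *Cdh23ahl* allele of early age-related hearing loss.

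FGF21 is an endocrine member of the fibroblast growth factor family, known chiefly as a hormone of the fasted or stressed liver, and it needs the co-receptor beta-klotho (KLB) to signal through an FGF receptor, chiefly FGFR1. GDF15 is a distant member of the TGF-beta family whose receptor GFRAL, with the partner RET, sits in the hindbrain, and ADM2 (intermedin) is a peptide of the calcitonin family that acts through CALCRL with a RAMP protein. The genes of all 3 hormones are known targets of ATF4, the transcription factor that the PERK arm of the unfolded protein response and other kinases of the integrated stress response induce.

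ATF4 binds, as a dimer with C/EBP proteins, sites with the core TGATGNAA, so the stretches before the start sites of the hormone genes are shown first. The 250 bases before the start site are printed 5′ to 3′ on the gene's strand, from RefSeq on build GRCm38.p6, with any match to a searched motif in capitals. *Fgf21* lies at chr7:45615491-45615740 on the minus strand, *Gdf15* at chr8:70632457-70632706 on the minus strand and *Adm2* at chr15:89322470-89322719 on the plus strand.
Fgf21: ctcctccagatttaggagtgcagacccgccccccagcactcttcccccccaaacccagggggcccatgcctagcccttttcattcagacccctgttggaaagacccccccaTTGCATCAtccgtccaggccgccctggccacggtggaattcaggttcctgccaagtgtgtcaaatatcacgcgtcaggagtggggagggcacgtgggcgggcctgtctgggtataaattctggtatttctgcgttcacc
Gdf15: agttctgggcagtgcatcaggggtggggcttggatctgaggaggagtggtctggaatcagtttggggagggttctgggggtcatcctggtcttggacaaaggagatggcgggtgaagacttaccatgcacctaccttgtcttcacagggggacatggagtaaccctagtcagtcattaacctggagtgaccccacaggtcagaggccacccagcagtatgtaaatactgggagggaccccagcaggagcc
Adm2: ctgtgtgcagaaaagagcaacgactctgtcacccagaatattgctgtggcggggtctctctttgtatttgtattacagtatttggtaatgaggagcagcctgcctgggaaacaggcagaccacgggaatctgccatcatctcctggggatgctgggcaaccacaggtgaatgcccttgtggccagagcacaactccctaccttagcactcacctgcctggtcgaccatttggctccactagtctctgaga

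The *Fgf21* stretch holds 1 match, TTGCATCA, which is the core TGATGNAA read on the other strand and begins 139 bases before the start site. Windows of 300 bases (250 before to 50 after a start site) were found for 4 of the 5 genes, with no entry for *Fgf21*'s receptor gene *Fgfr1*. Neither the windows of *Gdf15*, which has 2, nor that of *Adm2* held any of the 6 motifs searched on both strands. Those were TGATGNAA, the ER stress response element, the UPR element TGACGTGG, the CRE TGACGTCA (which shares its first bases with the UPR element), the PPAR response element and the antioxidant response element TGACNNNGC. The *Klb* window held TGACAGGGC, a match to the last of these, 67 bases before its start site. Over all 32851 windows, TGATGNAA was found in 3.97%, the ER stress response element in 0.119%, TGACGTGG in 0.676%, TGACGTCA in 1.79%, the PPAR response element in 0.0396% and TGACNNNGC in 12.4%.

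The *Fgf21* site is set beside the sites in *Chac1*, *Asns* and *Trib3*, genes of the ATF4 list that were singled out after their values were seen. *Atf5*, searched along with them, has 2 windows, and neither held a match to any of the motifs. Each line holds 30 bases of the strand on which the core, in capitals, reads TGATGNAA. The 4 places are chr7:45615611-45615640 (plus strand as printed), chr2:119351038-119351067 (minus), chr6:7693214-7693243 (minus) and chr2:152344028-152344057 (plus).
Fgf21: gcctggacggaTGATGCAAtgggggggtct
Chac1: cctggcaggagTGATGCAAcggcagggaag
Asns: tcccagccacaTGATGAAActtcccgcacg
Trib3: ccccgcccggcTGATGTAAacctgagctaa

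*Fgf21* and *Chac1* share the same 8 bases of the core. The *Chac1* match begins 193 bases and the *Asns* match 23 bases before the start site, whereas that of *Trib3* begins at base 15 after it. In the list of ATF4 and integrated stress response targets, 10 of the 23 genes with a window held the core (43.5%), against 4.51% of the 27025 genes with a window. That list was made of known targets of ATF4, which binds this core, so that a raised share is no independent finding. A match in letters is a description of the window and does not show that a factor binds there.

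*Fgf21* stood far higher in *Atf6-/-* than in *Atf6+/+* cochleae. Its level was 1.27, 4.49, 1.08, 5.34 and 1.08 FPKM in *Atf6+/+* replicates 1 to 5. In the 6 *Atf6-/-* libraries it was between 15.05 FPKM (replicate 6) and 20.24 FPKM (replicate 2), with a median of 18.3 FPKM. The groups did not overlap, and the lowest *Atf6-/-* library was 2.82 times the highest *Atf6+/+* library. Over all genes tested, 0.643% had every *Atf6-/-* library above every *Atf6+/+* library, a share that says nothing about a gene chosen for its difference. The mean was 2.65 ± 2.09 FPKM (SD, n = 5) against 18.1 ± 1.76 FPKM (SD, n = 6), a difference of 15.4 FPKM and a ratio of 6.81. On the scale of log2(FPKM + 0.1), which understates the change of low genes, the difference was 3.06 with a standard error of 0.45.

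The *Atf6+/+* libraries fell into a low set of 3, near 1 FPKM, and replicates 2 and 4, above 4 FPKM. The coefficient of variation of *Fgf21* was accordingly 78.8% among *Atf6+/+* and 9.76% among *Atf6-/-* libraries. By mean FPKM, *Fgf21* exceeded 26.02% of the genes at or above the floor in *Atf6+/+* and 69.5% in *Atf6-/-* cochleae.

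**Figure D1:**
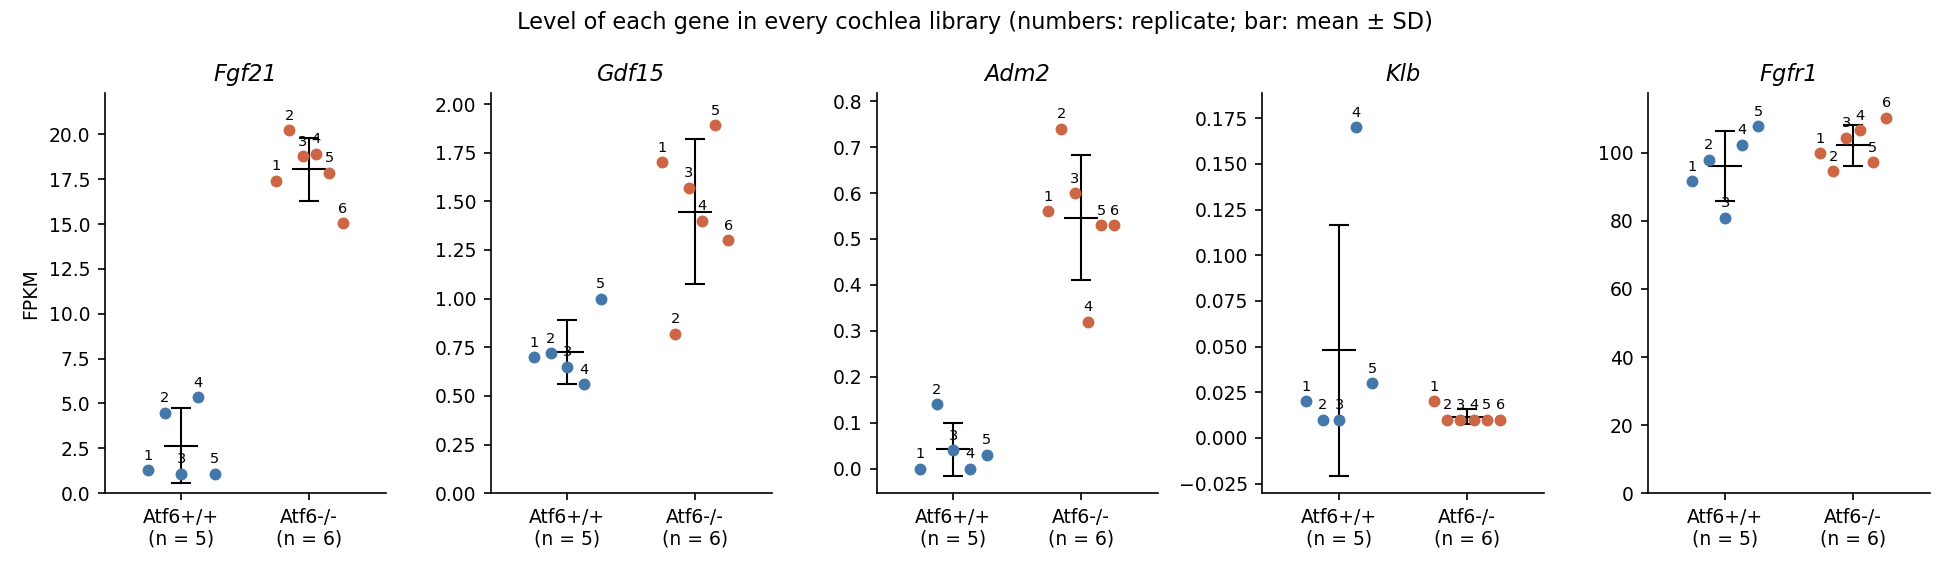
FPKM of *Fgf21*, *Gdf15*, *Adm2*, *Klb* and *Fgfr1* in each *Atf6+/+* (blue, n = 5) and *Atf6-/-* (orange, n = 6) library on linear axes, with the replicate number beside each point and the mean ± SD in black (the bars of *Adm2* and *Klb* may reach below 0). *Fgf21* and *Adm2* show no overlap between the genotypes, *Gdf15* overlaps through *Atf6-/-* replicate 2 at 0.82 FPKM, and *Fgfr1* overlaps in part.

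*Gdf15* was low in every cochlea and about 2 times higher in *Atf6-/-*. Its levels were 0.7, 0.72, 0.65, 0.56 and 1 FPKM in *Atf6+/+* replicates 1 to 5. In *Atf6-/-* libraries it ranged from 0.82 FPKM (replicate 2) to 1.89 FPKM (replicate 5), with a median of 1.49 FPKM. The groups overlapped through 1 library on each side: *Atf6-/-* replicate 2 was below *Atf6+/+* replicate 5, and the other 5 *Atf6-/-* libraries were above every *Atf6+/+* library. The means were 0.726 ± 0.165 FPKM (SD, n = 5) and 1.45 ± 0.372 FPKM (SD, n = 6), a ratio of 1.99 and a difference of 0.89 (SE 0.21) on the log2(FPKM + 0.1) scale. The *Atf6-/-* library lowest in *Gdf15* was the one highest in *Fgf21*.

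*Adm2* was at or near 0 in *Atf6+/+* cochleae and was present in all 6 *Atf6-/-* libraries. It was listed at 0 FPKM in *Atf6+/+* replicates 1 and 4 and at 0.14, 0.04 and 0.03 FPKM in replicates 2, 3 and 5. In *Atf6-/-* libraries it ran from 0.32 FPKM (replicate 4) to 0.74 FPKM (replicate 2), with a median of 0.545 FPKM. No library of one genotype reached the other, and the lowest *Atf6-/-* library was 2.29 times the highest *Atf6+/+* library. The means were 0.042 ± 0.0576 FPKM (SD, n = 5) and 0.547 ± 0.136 FPKM (SD, n = 6), a difference of 0.505 FPKM. No ratio of means is given, since the *Atf6+/+* mean is below the pseudocount. Per length of transcript, the *Atf6-/-* means in FPKM ordered the hormones as *Fgf21*, *Gdf15* and *Adm2*, and every *Atf6-/-* library had that order.

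The receptor side did not follow the same pattern. *Klb*, which makes a cell responsive to FGF21, was barely detected in either genotype. Its levels were 0.02, 0.01, 0.01, 0.17 and 0.03 FPKM in *Atf6+/+* replicates 1 to 5, and 0.02 FPKM in *Atf6-/-* replicate 1 with 0.01 FPKM in each of the other 5. The smallest value above 0 in the files is 0.01 FPKM, so most of these levels are 1 or 2 such steps, and no fold is given. The group means were 0.048 ± 0.0687 FPKM (SD, n = 5) and 0.0117 ± 0.00408 FPKM (SD, n = 6), and the groups overlapped.

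*Fgfr1*, the receptor kinase, was among the most abundant genes of the cochlea in both genotypes. It was at 91.65, 97.94, 80.9, 102.31 and 107.76 FPKM in *Atf6+/+* replicates 1 to 5. In *Atf6-/-* libraries it lay between 94.61 FPKM (replicate 2) and 110.35 FPKM (replicate 6), with a median of 102 FPKM. The ranges overlapped in part, with *Atf6+/+* replicates 1 and 3 below the lowest *Atf6-/-* library and *Atf6-/-* replicate 6 above the highest *Atf6+/+* library. The means were 96.1 ± 10.4 FPKM (SD, n = 5) and 102 ± 5.98 FPKM (SD, n = 6), a difference of 0.09 (SE 0.07) on the log2(FPKM + 0.1) scale, within the spread between libraries. *Fgf21* in FPKM came to between 1.002% and 5.22% of *Fgfr1* in *Atf6+/+* libraries and to between 13.6% and 21.4% in *Atf6-/-* libraries.

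Among the 18 secreted FGF ligands, the place of *Fgf21* by FPKM was 8, 5, 9, 6 and 8 in *Atf6+/+* replicates 1 to 5 and 4, 2, 2, 3, 3 and 4 in *Atf6-/-* replicates 1 to 6. It made up 0.413% to 2.16% of the summed FPKM of these ligands in *Atf6+/+* libraries and 6.34% to 8.22% in *Atf6-/-* libraries. *Fgf1* led in every library. In *Atf6-/-* cochleae the mean of *Fgf21* lay between those of *Fgf10* at 20.3 ± 1.92 FPKM and *Fgf18* at 17.6 ± 1.23 FPKM (SD, n = 6), and it differed from neither neighbour by more than the sum of their spreads. The next ligand down, *Fgf9*, was at 11.1 ± 1.14 FPKM, below *Fgf21* in all 6 libraries.

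**Figure D2:**
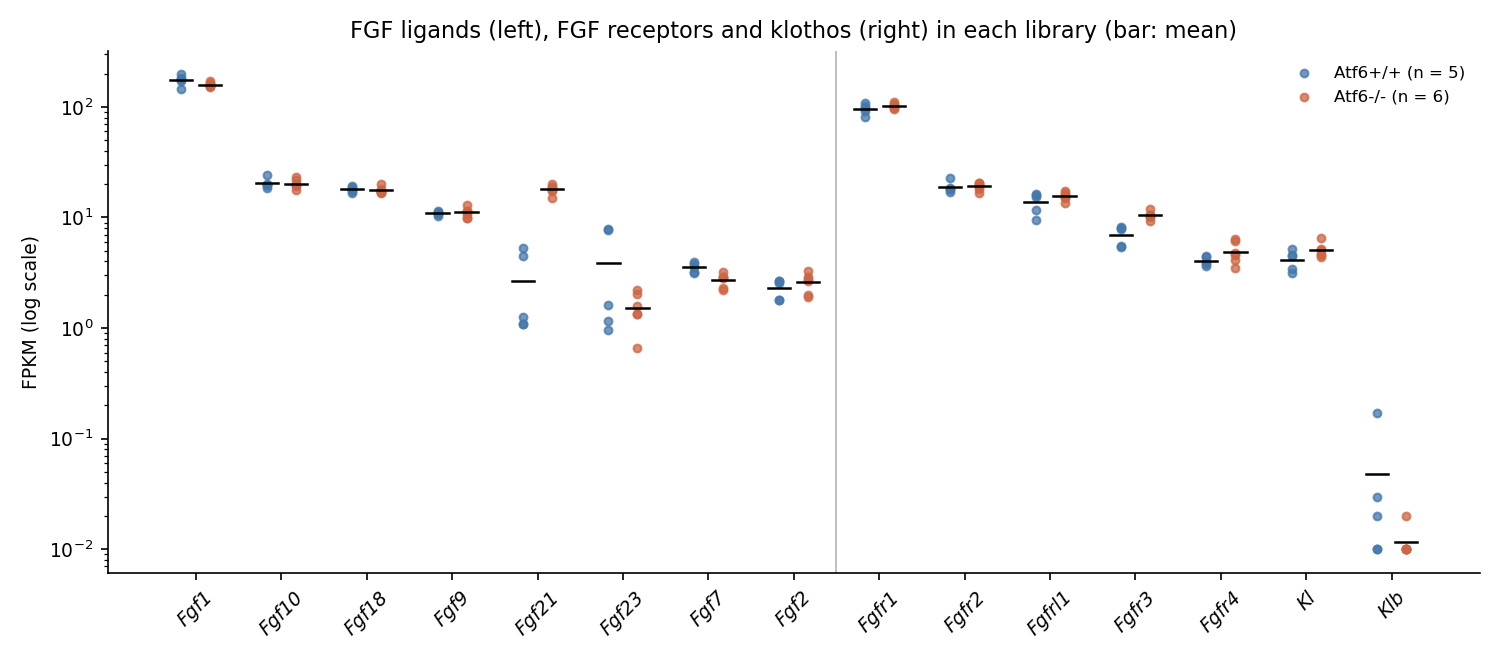
FPKM on a log axis of 8 FGF ligands (left of the line) and of the FGF receptors and klothos (right), with each point a library, blue *Atf6+/+* (n = 5) and orange *Atf6-/-* (n = 6), and black bars for means. *Fgf21* averages 2.65 FPKM in *Atf6+/+* cochleae and 18.1 FPKM in the *Atf6-/-* group, level with *Fgf10* and *Fgf18*, while *Klb* lies near the smallest value the files hold.

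Other genes were compared with limma, a linear model fitted to all 16169 genes with Benjamini-Hochberg adjustment. An adjusted p under 0.05 was reached by 0.068% of the genes tested. A wider rule asked for an unadjusted p no greater than 0.05 and a log2 fold change of over 0.05 in either direction, and was met by 9.85% of them, 4.48% higher and 5.37% lower in *Atf6-/-*. A gene said below to be higher or lower by the wider rule passed no adjustment unless the text says so, and over all genes tested the median log2 fold change was -0.01. In bulk tissue, fewer cells of a type and less RNA per cell cannot be told apart.

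Of the other 2 endocrine FGFs, *Fgf15*, the hormone of the ileum, was at most 0.07 FPKM in any library. *Fgf23*, the phosphate hormone of bone, averaged 3.87 ± 3.6 FPKM over the *Atf6+/+* libraries (SD, n = 5) and 1.53 ± 0.554 FPKM over the *Atf6-/-* libraries (SD, n = 6), with a log2 fold change of -0.81 (SE 0.55) by limma and an adjusted p of 0.613. Without *Atf6+/+* replicate 4 the log2 fold change was -0.43, and the same without replicate 5. Its high values of 7.87 and 7.74 FPKM were in *Atf6+/+* replicates 4 and 5, which also had the highest summed FPKM of bone markers (907 and 1975), and the part of bone in it was not tested. Among 10 paracrine FGFs tested, 1 was lower by the wider rule: *Fgf7*, a growth factor of mesenchyme for epithelium, at 3.54 ± 0.353 against 2.73 ± 0.392 FPKM. Of the 4 intracellular FGF homologous factors, which are not secreted and bind sodium channels, *Fgf12* was lower by the wider rule (log2 fold change -0.29, limma adjusted p = 0.475), a call lost in 6 of the 11 fits that left out a library.

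The other FGF receptors and klothos numbered 5 tested genes, of which 2 were higher by the wider rule and 0 lower, and none passed the adjustment. *Fgfr3*, a receptor of supporting cells in the organ of Corti, was at 7.93, 7.99, 5.35, 5.56 and 8.15 FPKM in *Atf6+/+* libraries and between 9.32 and 11.9 FPKM in *Atf6-/-* libraries, with no overlap. Its log2 fold change by limma was 0.59 (SE 0.12), with an unadjusted p of 0.000334 and an adjusted p of 0.133. The score of the supporting cell and tectorial membrane markers, a list that holds *Fgfr3* itself, was 4.16 ± 0.62 (SD, n = 5) against 4.43 ± 0.324 (SD, n = 6) in mean log2(FPKM + 0.1), with an exact two-sided permutation p of 0.351 (adjusted 0.445 over 16 lists). Another member of that list, *Epyc* (epiphycan, a matrix proteoglycan), singled out after its values were seen, was also higher by the wider rule, at 77.3 ± 33 against 135 ± 48.6 FPKM (log2 fold change 0.86, SE 0.31, limma adjusted p = 0.431), with overlap between genotypes. *Fgfr3* and *Epyc* were the only 2 of the 9 genes in the list to meet the rule. The others met neither rule, with log2 fold changes from -0.53 (*Tecta*) to 0.58 (*Tectb*). The part of supporting cells in the *Fgfr3* difference was not tested.

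*Kl*, the klotho that pairs FGF23 with its receptors, was at 4.13 ± 0.84 FPKM (SD, n = 5) and 5.06 ± 0.754 FPKM (SD, n = 6), with a log2 fold change of 0.30 by limma and an adjusted p of 0.505. It lay at the edge of the wider rule, which it missed in 7 of the 11 fits that left out a library, with log2 fold changes over all 11 from 0.21 (without *Atf6+/+* replicate 5) to 0.38. The list's count over the same 11 fits was 1 or 2. *Fgfr2*, *Fgfr4* and the decoy-like *Fgfrl1* met neither rule, with log2 fold changes of 0.01, 0.25 and 0.21, and that of *Fgfrl1* was 0.082 without *Atf6+/+* replicate 3. By mean FPKM the order was *Fgfr1*, *Fgfr2*, *Fgfrl1*, *Fgfr3*, then *Kl* and *Fgfr4* within their spread of each other, and last *Klb*.

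Genes that FGF receptors are known to induce, and the adaptors of their signal, showed no change by either rule in 17 genes tested, with 0 or 1 lower when a library was left out. The median log2 fold change of the list was 0.01, and its ends were -0.15 and 0.25. It includes the feedback inhibitors *Spry1*, *Spry2* and *Spry4* and the phosphatase *Dusp6*, at 7.82 ± 1.14 FPKM (SD, n = 5) and 7.88 ± 1.04 FPKM (SD, n = 6).

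For GDF15, the receptor gene *Gfral* has no entry under that symbol among the 18667 genes of the series, so no level is given. *Ret*, its signalling partner and that of the GDNF receptors, was at 2.24 ± 1.65 FPKM (SD, n = 5) and 1.6 ± 0.416 FPKM (SD, n = 6). Its log2 fold change by limma was -0.29 (adjusted p = 0.764), and it rested on *Atf6+/+* replicate 4 at 5.16 FPKM, since without that library the value was 0.05. In the GDNF family list, *Gfra3*, a receptor of pain-sensing neurons, was lower by the wider rule, with a log2 fold change of -1.60. The same library held it at 6.55 FPKM, against at most 0.38 FPKM elsewhere, and without it the gene still met the rule at a log2 fold change of -0.72. The call was lost in 7 of the 11 fits that left out a library.

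The tested relatives of *Adm2* were not higher in *Atf6-/-* cochleae. *Adm*, adrenomedullin itself, averaged 3.9 ± 0.646 FPKM over the *Atf6+/+* libraries (SD, n = 5) and 2.99 ± 0.449 FPKM over the *Atf6-/-* libraries (SD, n = 6), lower by the wider rule with a log2 fold change of -0.37 (SE 0.13, limma adjusted p = 0.415). *Calcb*, a sensory neuron peptide, also met the rule as lower, with a log2 fold change of -1.49, and was at 6.05 FPKM in *Atf6+/+* replicate 4. The other *Atf6+/+* libraries held it at 0.15 to 0.53 FPKM and the *Atf6-/-* libraries at 0.05 to 0.23 FPKM. Its log2 fold change was -0.69 without replicate 4, and the call was lost in 8 of the 11 fits that left out a library, that one included. Of the 6 genes tested among the receptors, 0 met either rule. *Calcrl*, the receptor of ADM2, was at 2.53 ± 0.216 against 2.21 ± 0.398 FPKM (n = 5 and 6), *Ramp1* at 3.39 against 3.32 FPKM, *Ramp2* at 43.9 against 45.04 FPKM and *Ramp3* at 2.79 against 2.80 FPKM. Their log2 fold changes, -0.20, -0.07, 0.04 and 0.02, were within their standard errors or less than 2 of them.

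Among the 22 tested regulators of the hormone genes, 6 were higher by the wider rule and 0 lower, and 1 passed the adjustment. With any 1 library left out, 4 or 5 were higher and 0 to 2 lower, so that the count of 6 rests on the full set of libraries. The gene that passed the adjustment was *Atf5*, a relative and target of ATF4 that acts in mitochondrial stress. It was at 32.95, 35.65, 33.67, 43.01 and 41.73 FPKM in *Atf6+/+* replicates 1 to 5 and between 60.7 and 75.6 FPKM in *Atf6-/-* libraries. It rose by 0.87 on the log2 scale (SE 0.08, limma adjusted p = 0.000441), with every *Atf6-/-* library above every *Atf6+/+* library, and it passed the adjustment under every alternative run. *Mlxipl* (a carbohydrate sensor), *Nr1h4* (the bile acid receptor) and *Ppard* were higher by the wider rule, with log2 fold changes of 0.21, 0.57 and 0.14. *Atf4* itself, outside the naming rule and singled out after its values were seen, was another of the 6, at 123 ± 14.9 against 140 ± 12.6 FPKM (log2 fold change 0.19, unadjusted p = 0.0419 and adjusted p = 0.495 by limma). It missed the wider rule in 8 of the 11 fits that left out a library. *Ddit3* (CHOP), likewise singled out, met neither rule, at 27.4 ± 3.31 against 23.6 ± 3.19 FPKM (log2 fold change -0.22, unadjusted p = 0.0533 and adjusted p = 0.505 by limma).

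The list nearest to the hormones was that of ATF4 and integrated stress response targets, in which 18 of 29 tested genes were higher by the wider rule, 0 were lower and 1 passed the adjustment. The list was chosen with results of these libraries known, so that its direction is not independent evidence. Its median log2 fold change was 0.24. *Shmt2*, a mitochondrial enzyme of one-carbon metabolism, rose from 18.5 ± 1.76 to 23.9 ± 0.826 FPKM (log2 fold change 0.38, SE 0.06, limma adjusted p = 0.0482). That call was lost when any 1 library other than *Atf6+/+* replicate 4 was left out. *Cars* (a tRNA synthetase), *Phgdh* (serine synthesis) and *Mthfd2* (one-carbon metabolism) were higher by the wider rule with log2 fold changes of 0.36, 0.48 and 0.52 and no overlap between genotypes. The count ran from 14 (without *Atf6-/-* replicate 1) to 20 (without *Atf6+/+* replicate 4) with a library left out and was 12 with a bone marrow score as a term.

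The changes in these targets were all smaller on the log2(FPKM + 0.1) scale than the difference in *Fgf21*, with the highest log2 fold change of the list at 0.88, in *Chac1*. *Chac1*, a glutathione-degrading enzyme, was at 3.26, 4.68, 4.29, 7.21 and 2.71 FPKM in *Atf6+/+* replicates 1 to 5 and between 5.94 and 9.35 FPKM in *Atf6-/-* libraries. *Atf6+/+* replicates 4 and 2, the libraries highest in *Fgf21* for their genotype, were also the highest in *Chac1*. The *Atf6-/-* libraries did not show that order: replicate 4, second in *Fgf21*, had the lowest *Chac1* of its genotype, and *Chac1* was highest in replicate 3, not in replicate 2, where *Fgf21* was highest.

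**Figure D3:**
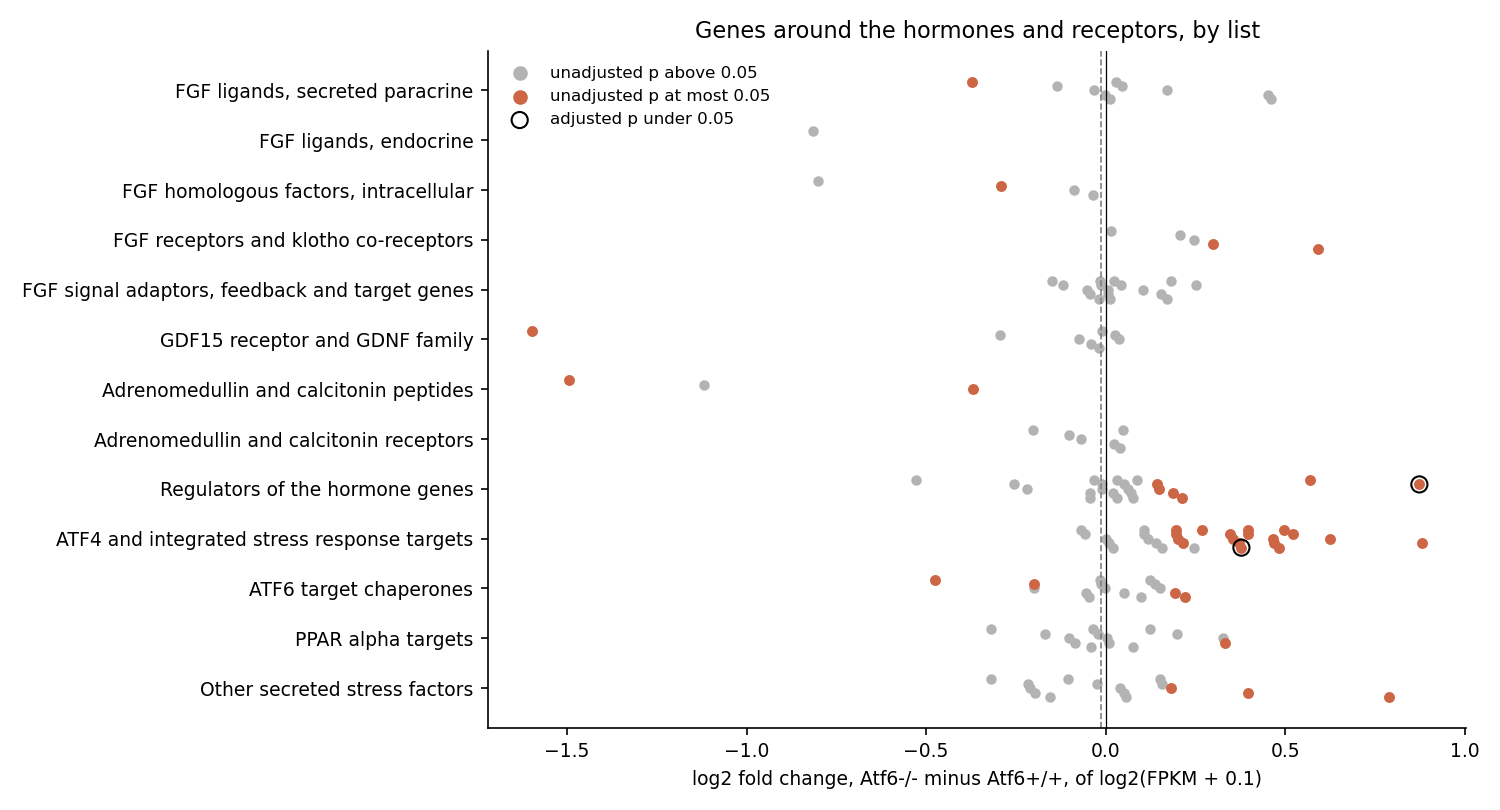
Log2 fold change, *Atf6-/-* minus *Atf6+/+*, of each tested gene in the 13 lists around the hormones, from the limma fit on log2(FPKM + 0.1), with the 5 chosen genes left out and vertical position within a list only separating points. Orange marks genes whose unadjusted p is no greater than 0.05, circles mark *Atf5* and *Shmt2*, and the dashed line is the median of all genes (-0.01). The targets of ATF4 lie mostly to the right (18 of 29 higher by the wider rule), and the FGF feedback genes around 0.

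Lists of other known inputs were mixed. Of 15 chaperones and folding genes that ATF6 induces, 2 were higher by the wider rule (*Hyou1* and *Herpud1*, log2 fold changes 0.22 and 0.19) and 2 lower, with *Derl3* at -0.47. Of 14 targets of PPAR alpha, the fasting regulator of *Fgf21* in liver, 1 was higher (*Acot1*, 0.33) and 0 lower, with a list median of -0.01. With a library left out, 1 to 3 of these targets were higher (3 without *Atf6+/+* replicate 3) and 0 to 2 lower (2 without *Atf6+/+* replicates 1 or 2 or *Atf6-/-* replicate 3). Of 15 other secreted stress factors, 3 were higher and 0 lower: *Fst* (follistatin, an activin inhibitor), from 2.63 ± 0.456 to 4.69 ± 1.23 FPKM with a log2 fold change of 0.79, *Vegfa* at 0.18 and *Stc2* at 0.40, whose call was lost in 8 of the 11 fits that left out a library. None of these passed the adjustment, with *Fst* at a limma adjusted p of 0.245. With a library left out, 2 to 4 of the secreted factors were higher and 0 to 3 lower (3 without *Atf6+/+* replicate 1), so that neither list was one-sided throughout. Over all 13 lists, 31 of 145 tested genes were higher and 7 lower by the wider rule, and 2 passed the adjustment. The numbers higher and lower were 20 and 3 when a bone marrow score was a term of the model.

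Within the 6 *Atf6-/-* libraries no correlation between the 5 genes could be told from 0. Of 10 pairs, none passed an exact two-sided permutation test after adjustment (all adjusted p at 0.926 or above), which with 6 libraries does not show that the genes vary apart. *Klb* took only the values 0.01 and 0.02 FPKM in these libraries, so that its 4 pairs could not have passed. The pair furthest from 0 by Pearson r, *Fgf21* and *Fgfr1*, had a Pearson r of -0.63 and a Spearman rho of -0.49 (exact permutation p of 0.167 and 0.356, adjusted 0.926 and 0.952, n = 6), and r was 0.85 without the 2 libraries farthest from the median of *Fgf21*. *Fgf21* and *Gdf15* had an r of -0.35 and a rho of -0.37 (exact permutation p of 0.463 and 0.497). With 5 *Atf6+/+* libraries no correlation is given.

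The genes whose log2(FPKM + 0.1) was most like that of a hormone over all 11 libraries, among the 13611 genes that averaged 1 FPKM or more, are given as a description. Both genotypes share these libraries, so that a gene higher in *Atf6-/-* tends to score high with a hormone. The order is by signed r, so that genes lower in *Atf6-/-* tend not to be listed. For *Fgf21* they were *Mars1* (r = 0.96), *Cars* (0.95), *Cntfr* (0.94), *Copa* (0.93) and *Cc2d1a* (0.92). *Mars1* and *Cars* are both tRNA synthetases. For *Gdf15* they were *Bcat2* (0.95), *Srpr* (0.91), *Sec61a1* (0.90), *Nde1* (0.90) and *Rhoj* (0.90). For *Adm2* they were *Aldh1l2* (0.98), *Duxbl1* (0.95), *Tmem254a* (0.93), *Elk1* (0.93) and *Snx29* (0.93). *Fgfr1* went with *Zdhhc12* (0.99), *Plekhh3* (0.96), *Ppp1r37* (0.94), *Sh3gl1* (0.93) and *Pdgfrl* (0.93).

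After the genotype means were taken off, the most like genes of *Fgf21* were *Vps11*, *Radil*, *Exoc7*, *Zfp689* and *Maea* (r from 0.91 to 0.86), none of which was in its first set. Those of *Gdf15* were *Sat1*, *Tmem102*, *Npnt*, *Sumf1* and *Tmem87a* (0.93 to 0.89), again with none shared. *Aldh1l2*, a mitochondrial folate enzyme, stayed among the 5 for *Adm2* (0.86), beside *Tma16*, *Ube2z*, *Pex11g* and *Acadl*. For *Fgfr1*, *Zdhhc12*, *Plekhh3* and *Pdgfrl* stayed, with *Hyal2* and *Prrx2* beside them.

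*Atf6* RNA, the check on the labels, ran from 8.25 to 10.6 FPKM over *Atf6+/+* libraries and from 3.83 to 4.59 FPKM over *Atf6-/-* libraries (log2 fold change -1.13, limma adjusted p = 5.17e-05), with no overlap. The cochlear markers *Coch* (fibrocytes), *Myo7a* (hair cells) and *Kcnq1* (stria vascularis) were present in all libraries, at 2024 FPKM or more, 4.86 FPKM or more and 2.69 FPKM or more. Some other markers of the stria vascularis were at or near 0 in *Atf6+/+* replicate 4, with *Bsnd* at 0 and *Kcne1* at 0.1 FPKM. FPKM summed to between 462005 and 537926 per library, and pairs of libraries correlated at 0.963 to 0.990 in log2(FPKM + 0.1). Of 16 marker lists, 0 differed between genotypes at an adjusted p under 0.05 by the exact two-sided permutation test, whose smallest p is 0.00216, and 4 did at an unadjusted p under 0.05. By that exact test these were the erythroid list (difference -1.43, p = 0.0173), adipocyte (-1.07, p = 0.0498), brown fat (-0.43, p = 0.039) and exocrine pancreas (-0.22, p = 0.0303), all lower in *Atf6-/-* and all at an adjusted p of 0.199. Without *Atf6+/+* replicate 4 the adipocyte difference was -0.518 and that of brown fat -0.175, and only the erythroid list kept an unadjusted p under 0.05 with each library left out in turn. At a pseudocount of 1, the same exact test gave -0.19 for brown fat (p = 0.123) and -0.044 for exocrine pancreas (p = 0.130). Only 1 of the 6 pancreas genes reached the floor of 0.1 FPKM, so that its score rests on values near 0.

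Markers of tissues outside the cochlea that are known to express *Fgf21* were read library by library. The liver markers summed to 31.5 to 73.9 FPKM in *Atf6+/+* and 14.6 to 68.2 FPKM in *Atf6-/-* libraries, mostly *Ttr*. Of the other members, *Cyp2e1* was at 1.26 to 5.13 FPKM and *Apoc3* at 0.16 to 1.22 FPKM, *Apoa1* was at most 0.44 FPKM, and the defining liver genes *Alb*, *Cps1* and *Serpina1a* were at most 0.31 FPKM in any library. The exocrine pancreas markers summed to at most 2.8 FPKM, mostly *Cela1*, with *Cpa1* and *Prss2* at most 0.06 FPKM. The skeletal muscle markers summed to 51.8 FPKM in *Atf6-/-* replicate 3 and at most 13.7 FPKM elsewhere. *Fgf21* in that library, at 18.8 FPKM, lay within the range of the other *Atf6-/-* libraries. The part of liver, pancreas or muscle RNA in the *Fgf21* values was not tested.

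The adipocyte markers summed to 70.2 FPKM in *Atf6+/+* replicate 4 and to between 3 and 10.5 FPKM in the other 10 libraries. That replicate was also low in markers of the stria vascularis, with a score of 1.49 in mean log2(FPKM + 0.1) against 3.01 or more in every other library, and *Kcne1* at 0.1 FPKM and *Dct* at 0.84 FPKM, where the other *Atf6+/+* libraries had at least 14.1 and 56.84 FPKM. Replicate 4 also held *Ucp1* of brown fat at 5.28 FPKM, against at most 0.22 FPKM elsewhere, and the sensory neuron peptide *Calca* at 62.8 FPKM. It was the *Atf6+/+* library with the highest *Fgf21* and the highest *Klb*, a gene known from fat, and the part of fat, or of the low stria markers, in these 2 values was not tested. *Atf6+/+* replicate 2, with *Fgf21* at 4.49 FPKM, had the lowest adipocyte sum of its genotype, 4.25 FPKM. Without replicate 4, the difference of the *Fgf21* means was 16.1 FPKM, and that of the *Klb* means was -0.00583 FPKM.

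**Figure D4:**
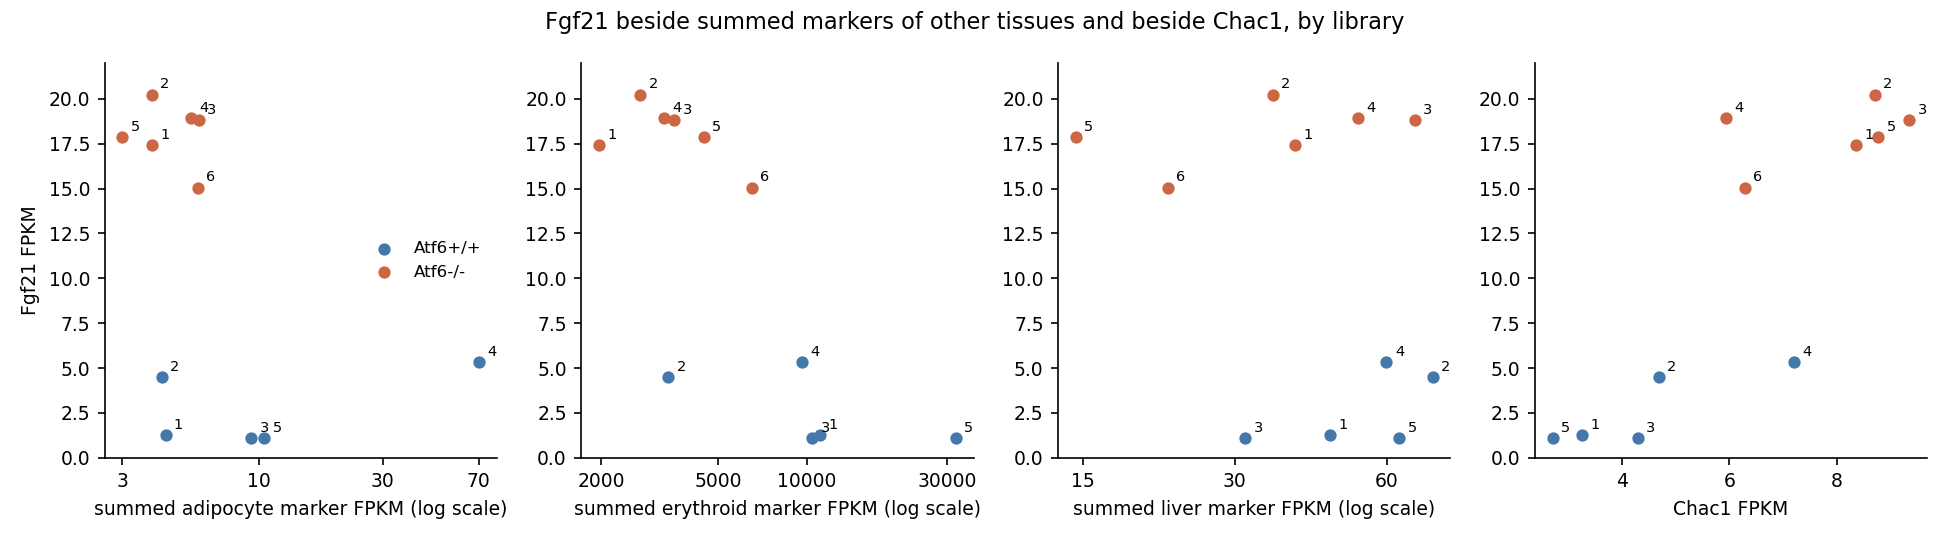
*Fgf21* FPKM (linear) against the summed FPKM of adipocyte, erythroid and liver markers (log axes) and against *Chac1* FPKM (linear), with each point a library labelled by replicate, blue *Atf6+/+* and orange *Atf6-/-*. *Atf6+/+* replicate 4 stands alone in adipocyte markers at 70.2 FPKM, and *Fgf21* is at 15.05 FPKM or more in all 6 *Atf6-/-* libraries and at 5.34 FPKM or less in all 5 *Atf6+/+* libraries.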

How the data were processed

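RNA-Seq of 5 *Atf6+/+* and 6 *Atf6-/-* whole mouse cochleae was analysed. The authors prepared stranded mRNA libraries, and the submitters' processing notes name HISAT2 2.0.4, RSEM 1.2.12, DESeq2 1.4.5 and the genome build GRCm39. The authors deposited FPKM values per gene with 2 decimals, and tables of their own comparisons were not used. FPKM divides by transcript length and by mapped reads, so that a low gene's value rests on few fragments. Read counts were not used here and the study states a nominal sequencing depth common to all samples, not the reads obtained per library, so no counting error is given.

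The FPKM tables were joined by NCBI gene identifier, and samples were grouped by title. Genes that averaged 0.1 FPKM or more were fitted with limma 3.58.1 (R 4.3.3) on log2(FPKM + 0.1), two-sided, with a mean-variance trend, genotype as the only term and Benjamini-Hochberg adjustment. The model was tested on simulated data. Marker scores, the mean log2 value of a list per library, were compared by exact permutation over 462 splits. The study used littermate controls and animals of both sexes in each group, but neither the sex nor the litter of a library is given in the sources used here, nor whether libraries share a mouse, so p-values measure the spread between these libraries.

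The genes described and all gene lists were chosen with earlier results of these data known. Besides the 5 genes and *Atf6*, the text names the endocrine FGFs, FGF receptors, klothos, *Ret*, *Adm*, *Calcrl* and the RAMPs, and from each list the genes with an adjusted p under 0.05 and up to 3 others of smallest unadjusted p. The most like genes are the 5 of highest Pearson r. Promoter windows come from RefSeq (GRCm38.p6) and were matched by gene identifier, and files on GRCm39 were not joined to their coordinates. Alternatives were other pseudocounts (1 and 0.01), no filter or a floor of 1 FPKM, 2 other scalings (to TPM, and by median of ratios), robust variance, a replicate block, a covariate that averages the erythroid, neutrophil and B cell scores (the bone marrow score), and each library left out, the last added for marker scores after seeing the data. The other steps ran in Python 3.11.15 (scipy 1.17.1, pandas 2.3.3, numpy 2.4.6), and figures were drawn with matplotlib 3.10.9.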

Additional observations from a re-analysis of the deposited data

Results flagged for a closer look

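Dixon's test at the 95% level picks out a library that stands apart from the others of its genotype. It was run on 74 groups, of which chance picks out about 1 in 20, and in 9 of them a library stood apart. In the hormones and receptors, *Adm2* was at 0.14 FPKM in *Atf6+/+* replicate 2, where the next library was at 0.04 FPKM. *Klb* was at 0.17 FPKM in *Atf6+/+* replicate 4, the library with the most adipocyte marker RNA, and at 0.02 FPKM in *Atf6-/-* replicate 1, which is 1 step of the files' 2 decimals above the others.

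*Atf6+/+* replicate 4 also stood apart in *Ret* at 5.16 FPKM, *Gfra3* at 6.55 FPKM and *Calcb* at 6.05 FPKM. *Fgfr2* was at 22.91 FPKM in *Atf6+/+* replicate 5 and *Acot1* at 9.86 FPKM in *Atf6+/+* replicate 3, the lowest of its group. *Nr1h4* was at 1.13 FPKM in *Atf6-/-* replicate 5. *Fgf21* and *Gdf15* had no such library in either genotype.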

How the results depend on the processing

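The differences of the 5 genes between genotypes kept their direction and moved by less than the SD between libraries under every scaling and with any 1 library left out. For *Klb* and *Fgfr1* that SD (0.0459 and 8.22 FPKM) is larger in size than the difference itself (-0.0363 and 6.10 FPKM). It is therefore no measure of stability for these genes. For *Fgf21* the left-out values ran from 14.96 to 16.1 FPKM, for *Gdf15* from 0.632 to 0.846, for *Adm2* from 0.466 to 0.55, for *Klb* from -0.0458 to -0.00583 and for *Fgfr1* from 2.30 to 9.01 FPKM. After rescaling to TPM the *Fgfr1* difference was 10.2, against 6.10 in the main setting. The 11 genes past the adjusted threshold among all genes became 4 with a replicate block and 6 with the bone marrow score, and 8 to 13 with a library left out. The 1592 genes of the wider rule became 884 with the bone marrow score. In the lists, the 2 adjusted calls became 1 at a pseudocount of 0.01, with a floor of 1 FPKM, under median-of-ratios scaling, with the replicate block and with the bone marrow score, 3 after rescaling to TPM, and were 1 to 2 with a library left out. The 31 higher and 7 lower became 20 and 3 with the bone marrow score, and the lower count ran from 3 to 11 with a library left out. The cause was not tested. The median log2 fold change over all genes was 0.04 after rescaling to TPM, against -0.01.

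With the bone marrow score, the log2 fold changes turned to -0.037 for *Fgfr2*, -0.034 for *Fgfrl1*, 0.0093 for *Ramp1*, -0.035 for *Ramp2* and -0.19 for *Ramp3*. With a library left out, the ranges that crossed 0 were -0.025 to 0.083 for *Fgfr2*, -0.41 to 0.050 for *Ret*, -0.14 to 0.071 for *Ramp1*, -0.045 to 0.11 for *Ramp2* and -0.088 to 0.082 for *Ramp3*. Correlations within *Atf6-/-* crossed 0 for *Fgf21* and *Gdf15* (-0.91 to 0.42), *Fgf21* and *Adm2* (-0.31 to 0.80), *Gdf15* and *Adm2* (-0.84 to 0.40), *Gdf15* and *Fgfr1* (-0.99 to 0.53) and *Adm2* and *Klb* (-0.19 to 0.27). Marker differences crossed 0 for skeletal muscle (-0.48 to 0.23) and stria vascularis (-0.39 to 0.36).

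The genotypes share replicate numbers 1 to 5, but same-numbered libraries did not deviate together: the correlations of their deviations were 0.09, -0.12, -0.21, 0.12 and -0.04, and 1 of 5 libraries was best matched by its own number. With the replicate block, which has no partner for *Atf6-/-* replicate 6, 1078 genes met the wider rule, and the mean of the pair differences was 16 FPKM for *Fgf21*, 0.75 for *Gdf15* and 0.508 for *Adm2*.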
